A study of Mus musculus with 9 samples.

Results

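The cytochrome P450 family was read from a count table of colonic intestinal epithelial cells (IECs). Members were the symbols made of Cyp, a family number, a subfamily letter and a gene number. Of the 46095 symbols in the table, 94 fitted this pattern. The 52 with at least 10 counts summed over all 9 libraries were kept, from 10 families and 24 subfamilies. A further 18 symbols had 1 to 9 counts and 24 had none. *Cyp1a1*, *Cyp1a2* and *Cyp1b1*, textbook targets of the aryl hydrocarbon receptor, were below 10 counts and are not members.

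The study compared Smad4Vil-KO mice, labelled S (genotype Smad4-knockout, 4 libraries), with Smad4Vil-KO;Setd2Vil-KO mice, labelled DDKO (genotype Smad4-knockout;Setd2-knockout, 5 libraries). Both genotypes were made on the C57BL/6j background by Cre recombinase under the Villin promoter, which acts in epithelium and leaves the floxed genes intact in other cells. Mice of both genotypes received 10 mg/kg azoxymethane (AOM) at 8 weeks of age and then 2% dextran sulphate sodium (DSS) for 5 days, and were examined at day 10, so that Smad4 deletion and the AOM/DSS treatment were shared by all libraries. IECs were released from the colon with EDTA. The labels number the libraries and do not say how many mice each came from, so the p-values measure the spread between libraries.

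P450 enzymes hold a haem iron on a cysteine and use oxygen and electrons from NADPH to oxidize their substrates. Families 1 to 4 mainly act on drugs, dietary compounds and fatty acids. The higher-numbered families mostly have defined steps in sterol, bile acid, vitamin D and retinoid metabolism. In the intestine, they form part of the barrier against ingested chemicals and make lipid mediators from arachidonic acid. Many of the genes stand in tandem clusters of duplicates, in which some neighbours are close to identical in sequence.

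The stretch around the haem-binding cysteine is the hallmark of the family. It was searched as 10 codons in the coding transcripts of each gene (GENCODE M21, build GRCm38), and read from the longest transcript that held it, as phenylalanine at position 1, glycine at position 4, cysteine at position 8 and glycine at position 10. Of the 51 members with a coding transcript 48 held it, as did 139 of all 21794 coding genes searched, 96 of them with Cyp symbols. *Cyp2d13* is a transcribed pseudogene in RefSeq and had no transcript to search. The stretches of the other members whose level differed between the genotypes follow, with that of *Cyp2c55*, the most abundant member, because they show how alike the members are. The cysteine codon is in capitals.

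Cyp2c44: ttctccctcgggaagcgatccTGTgttggc
Cyp2c55: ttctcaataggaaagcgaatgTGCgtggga
Cyp2c66: ttctcaacaggaaaacggattTGTgtggga
Cyp2c67: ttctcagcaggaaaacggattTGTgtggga
Cyp2d10: ttctcagcaggccgcagatcaTGCctgggt
Cyp2d34: ttctcagcaggccgcagatcaTGCctgggt
Cyp2f2: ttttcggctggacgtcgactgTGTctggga
Cyp2j6: ttctcaatgggaaagcgagctTGCctggga
Cyp2j9: ttctcaatgggaaaacgtgctTGTcttgga
Cyp3a13: tttgggagtggaccaaggaacTGCattggc
Cyp3a25: tttggaaatggacccaggaacTGCataggc
Cyp4f16: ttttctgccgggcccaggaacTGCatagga
Cyp27a1: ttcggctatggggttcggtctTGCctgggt

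The median pair of 1 subfamily had 27 of the 30 bases in common (90 pairs), against 17 of 30 for pairs of different subfamilies (1038 pairs). *Cyp2d10* and *Cyp2d34* were identical here, as were *Cyp2c66* and *Cyp2c65*, and *Cyp2c67*, *Cyp2c68*, *Cyp2c69* and *Cyp2c40*. Over the whole exon sequence, 38 of 51 members shared at least 1 stretch of 50 bases with another gene, and 16 shared over 10% of such stretches. The authors' counting could have split or dropped reads from these stretches, so counts of *Cyp2c40*, *Cyp2c67*, *Cyp2c68* and *Cyp2c69* (43.3% to 60.3% shared), *Cyp2d10* (35.8%) and *Cyp3a25* (26.8%) are less certain for the single gene. *Cyp2c44*, *Cyp2c70*, *Cyp2j9*, *Cyp3a13* and *Cyp27a1* shared none.

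The libraries held 12487129 to 17120202 counts, so that 1 count was worth 0.0594 to 0.0794 CPM, the count scaled by library size and TMM factor. *Setd2*, the targeted gene, had 99.2 to 120 CPM in the S libraries and 53.9 to 87.1 in the DDKO libraries (log2 fold change -0.77 ± 0.14 SE, adjusted p = 0.00756, edgeR's quasi-likelihood test, adjusted by Benjamini-Hochberg). *Smad4* was at 64.2 ± 19 and 70.3 ± 34.4 CPM. Summed counts of 4 Y-linked genes were 4907, 4745 and 3857 in DDKO replicates 1, 2 and 5 and at most 28 in every other library, which are called the libraries without Y-linked counts. *Xist*, transcribed from the inactive X chromosome, had 5, 6 and 5 counts in DDKO replicates 1, 2 and 5 and 17833 to 26617 in every other library. The labels give no sex, but by these counts DDKO replicates 1, 2 and 5 read as male and all other libraries as female. All 12 colon epithelium markers were detected, and their summed level was 19444 to 23370 CPM in the S libraries and 13761 to 19162 in the DDKO libraries. *Muc2*, the main secreted mucin, was the only one with an adjusted p under 0.05 (edgeR's quasi-likelihood test, lower). It was at 6143 ± 1253 and 2003 ± 444 CPM, which is most of the difference between the sums. The median log2 fold change of the 12 markers was -0.11.

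Of the 52 members, 36 passed the filter on low counts and were tested, and 16 did not. The 16 had 11 to 73 counts in all. At an adjusted p under 0.05 in edgeR's test, 8 members were higher and 5 lower in the DDKO libraries, which is 36.1% of those tested. Among all 14593 genes tested 13.3% passed (6.76% higher, 6.54% lower), against 22.2% higher and 13.9% lower for the members. The median log2 fold change of the tested members was 0.18, with 20 of 36 above 0. Their median absolute log2 fold change was 0.77, against 0.23 for all genes tested. Of the 8 higher members, *Cyp2c44*, *Cyp2c66*, *Cyp2c67* and *Cyp3a25* had fewer than 10 counts in at least 1 S library and passed the filter through the DDKO libraries, so these shares do not show that the family differs from other genes.

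**Figure D1:**
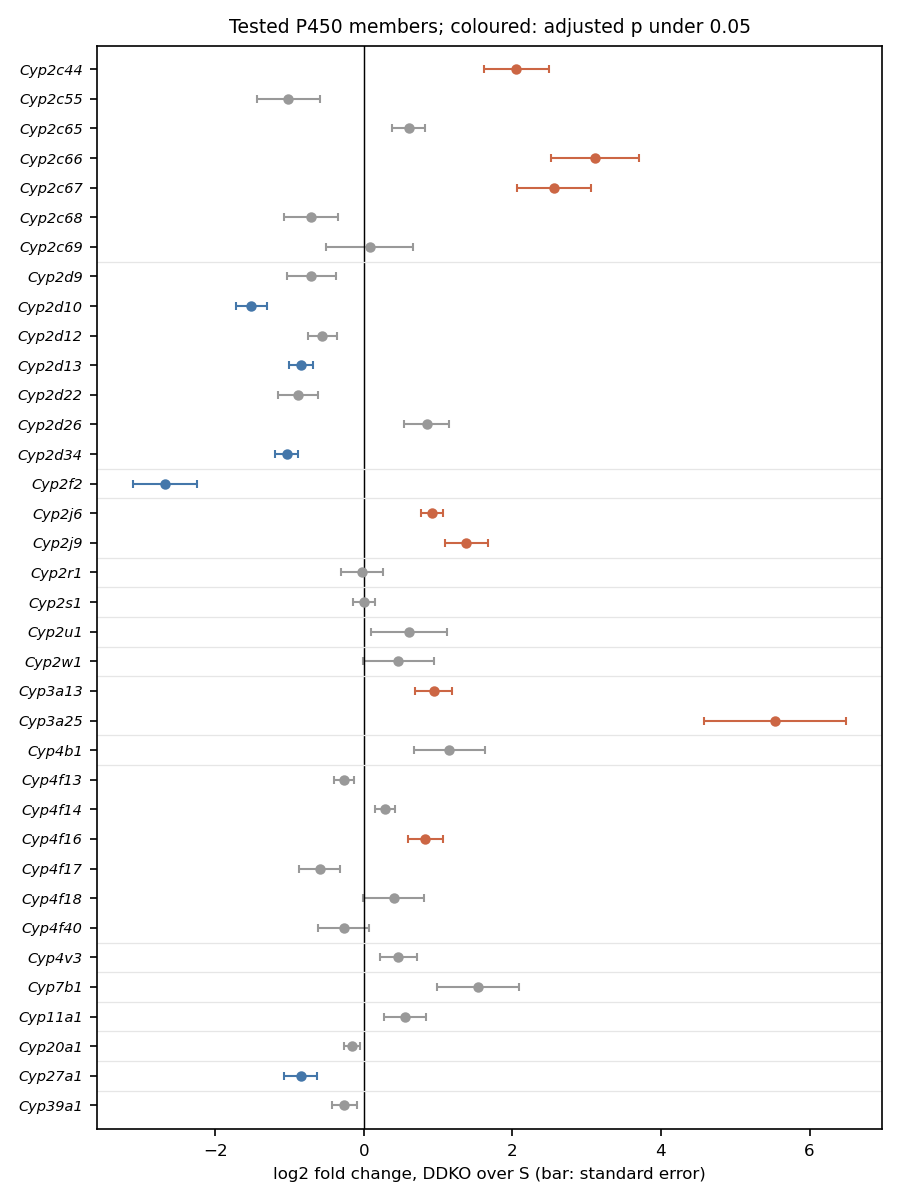
Log2 fold change of each of the 36 tested members between DDKO (n = 5) and S (n = 4) libraries, grouped by subfamily, with the standard error as a bar. Orange points are the 8 members that were higher and blue points the 5 that were lower at an adjusted p under 0.05 (edgeR's quasi-likelihood test), and grey points did not pass.

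The summed level of the family was 2220 to 2625 CPM in the S libraries and 1225 to 2374 CPM in the DDKO libraries. One member made up much of it. *Cyp2c55* took 40.6% to 54.0% of the sum in the S libraries and 10.1% to 39.9% in the DDKO libraries. Without *Cyp2c55* the sum was 1205 to 1360 CPM in the S libraries and 1101 to 1662 CPM in the DDKO libraries, and the ranges overlapped. The Cyp2d sum was 393 ± 39.0 CPM in the S and 210 ± 39.0 CPM in the DDKO libraries, the Cyp2j sum was 102 ± 11.7 and 194 ± 40.2, the Cyp3a sum 113 ± 14.3 and 241 ± 98.4, and the Cyp4f sum 316 ± 31.3 and 372 ± 68.0 (mean ± SD). The library values of the first 3 of these sums did not overlap between the genotypes, and those of the Cyp4f sum did. In bulk RNA, fewer cells of a type and less RNA per cell cannot be told apart.

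**Figure D2:**
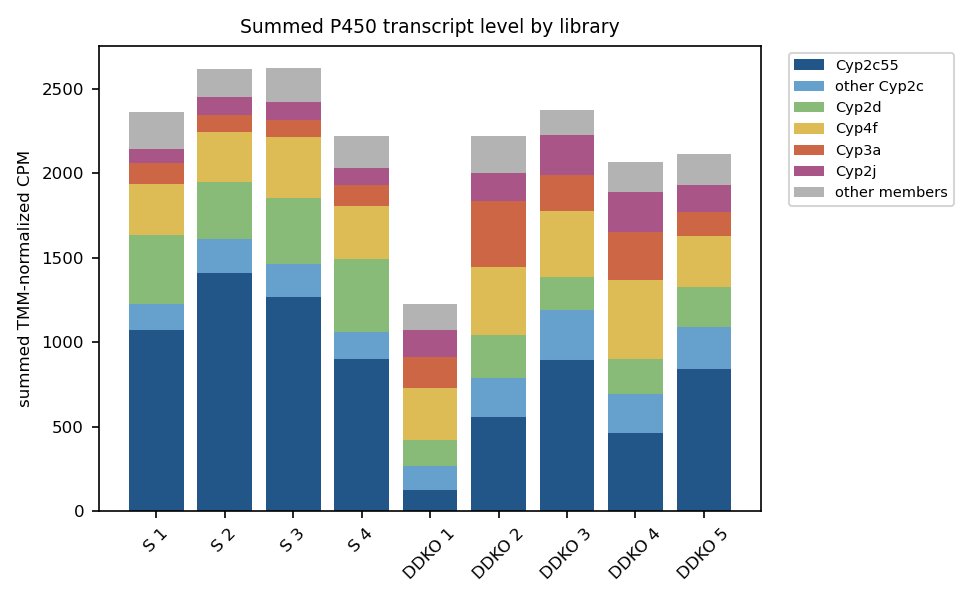
Summed CPM of the 52 members in each of the 4 S and 5 DDKO libraries, stacked by subfamily with *Cyp2c55* on its own. *Cyp2c55* fills 40.6% to 54.0% of the S bars and 10.1% to 39.9% of the DDKO bars, and the Cyp2d part is smaller and the Cyp2j and Cyp3a parts larger in each DDKO bar than in any S bar.

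The Cyp2c subfamily, whose enzymes oxidize arachidonic acid and many drugs, had log2 fold changes of both signs. Of its 9 members 7 were tested, 3 were higher and none was lower in edgeR's test at an adjusted p under 0.05 (1 lower at an unadjusted p under 0.05 and in limma-voom, none in DESeq2). Except for *Cyp2c44*, they stand in 1 cluster on chromosome 19, in the order *Cyp2c55*, *Cyp2c65*, *Cyp2c66*, *Cyp2c67*, *Cyp2c68*, *Cyp2c40*, *Cyp2c69* and *Cyp2c70*.

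*Cyp2c55* (chr19:39006940-39042690, GRCm38), which is abundant in mouse colon and hydroxylates arachidonic acid, was at 1072, 1412, 1265 and 902 CPM in the S libraries. In the DDKO libraries it was at 123, 556, 895, 464 and 843 CPM. Every DDKO library was below every S library, with replicate 1 far below the others and replicates 3 and 5 close to the lowest S library. The log2 fold change of -1.01 ± 0.42 did not pass (adjusted p = 0.133, edgeR's quasi-likelihood test), and limma-voom with quality weights gave an adjusted p of 0.0395, in a range of 0.0395 to 0.425 over the alternatives. Without DDKO replicate 1 the log2 fold change was -0.75. Per kilobase of exon, *Cyp2c55* was at 583 CPM in the S and 289 CPM in the DDKO libraries, above every other member in both genotypes, the next being *Cyp2d34* at 82.0 (S) and *Cyp2c65* at 91.3 (DDKO).

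*Cyp2c65* and *Cyp2c66* lie next to each other downstream of *Cyp2c55* and both oxidize arachidonic acid. *Cyp2c66* (chr19:39113898-39186756) was at 0.0642, 2.56, 1.54 and 1.51 CPM in the S libraries and 6.41, 11.5, 17.1, 19.6 and 7.60 CPM in the DDKO libraries. No libraries overlapped, and S replicate 1 held a single count. Its log2 fold change was 3.12 ± 0.59 (adjusted p = 0.00799, edgeR's quasi-likelihood test). *Cyp2c65* was far more abundant, with 59.9 CPM per kilobase of exon in the S libraries against 0.728 for *Cyp2c66*. It was at 80.1, 163, 130 and 90 CPM against 120, 184, 226, 174 and 176 CPM. The genotypes overlapped through S replicates 2 and 3 and DDKO replicate 1, and the log2 fold change of 0.61 ± 0.22 did not pass (adjusted p = 0.0921, edgeR's quasi-likelihood test). It passed in DESeq2 (adjusted p = 0.0327) and limma-voom (0.0437), in a range of 0.0292 to 0.213 over the alternatives. The genes shared 19.5% and 20.7% of 50-base stretches, nearly all with each other, and the sum of both was 117 ± 38.8 and 189 ± 41.5 CPM.

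*Cyp2c67* (chr19:39608844-39649079) stood at 0.257, 0.119, 0.676 and 0.635 CPM in the S libraries. In the DDKO libraries it was at 2.37, 1.21, 2.73, 4.01 and 2.17 CPM. Without overlap, the log2 fold change was 2.57 ± 0.50 (adjusted p = 0.00881, edgeR's quasi-likelihood test). The near-identical *Cyp2c68* was the abundant member of this group, at 58.0 ± 18.3 against 35.4 ± 17.3 CPM (log2 fold change -0.71 ± 0.36), and the sum of *Cyp2c40*, *Cyp2c67*, *Cyp2c68* and *Cyp2c69* was 59.8 ± 19.2 and 39.8 ± 17.5 CPM, most of it *Cyp2c68*. *Cyp2c69* was at 0.357 to 2.89 CPM in the S and 0.472 to 2.42 CPM in the DDKO libraries.

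*Cyp2c44* (RefSeq *Cyp2c23*, chr19:44005022-44029256) makes epoxides of arachidonic acid and lies apart from the cluster. Its levels were low, at 0.449, 0.297, 0.430 and 0.0794 CPM in the S libraries and 1.35, 1.35, 0.839, 2.12 and 1.16 CPM in the DDKO libraries. All DDKO libraries were above all S libraries (log2 fold change 2.05 ± 0.44, adjusted p = 0.0136, edgeR's quasi-likelihood test). With a term for the replicate number it did not pass (adjusted p = 0.0522 in the same test). The study's RT-qPCR primers for this gene are shown because a near copy could be measured in its place. Each matched transcripts of this gene alone, over its whole length.

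Forward: gctgccctatacagatgccg
Reverse: gtgacgctaagagttgccca

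*Cyp2c70*, which makes muricholic acids in the mouse, was not tested. It had 1 count in the S libraries together and 72 in the DDKO libraries, a ratio per library size of 63.4 (95% exact counting interval 11 to 2540, which covers counting error only). By library it was at 0, 0, 0 and 0.0794 CPM against 0.256, 1.49, 1.40, 1.89 and 0.233 CPM, without overlap. *Cyp2c40* had 0 to 0.192 CPM in the S and 0.0786 to 1.07 CPM in the DDKO libraries.

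**Figure D3:**
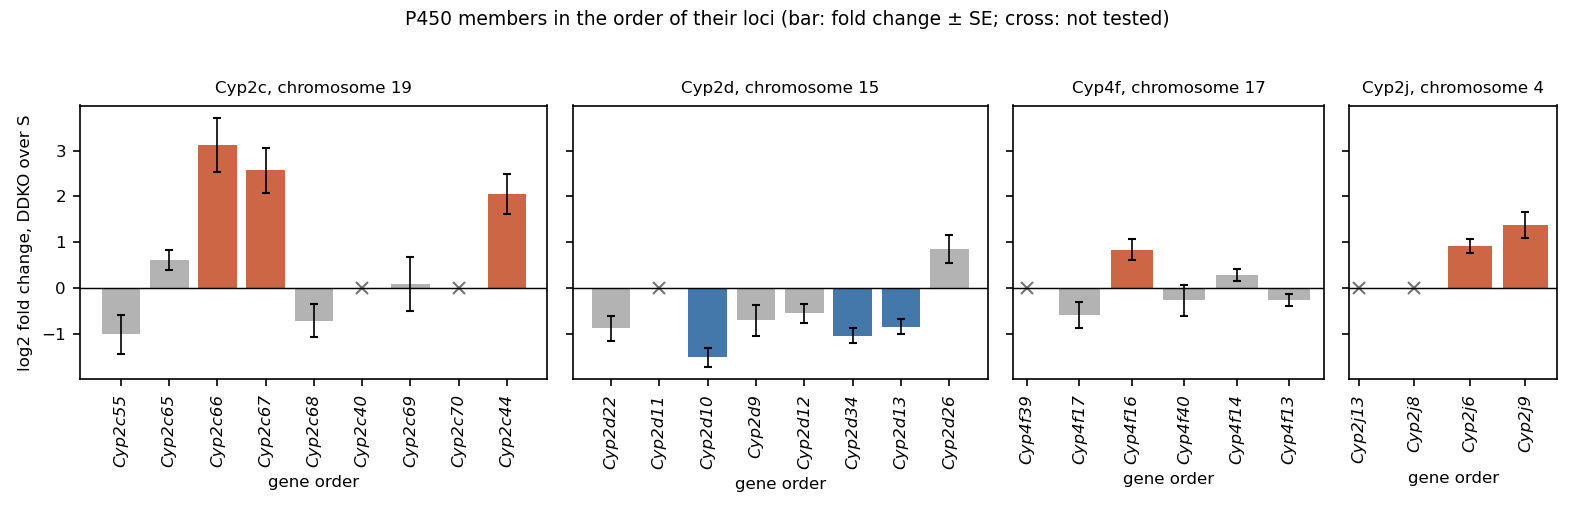
Log2 fold change (DDKO over S, bars, with standard error) of members in the order of their loci in the Cyp2c, Cyp2d, Cyp4f and Cyp2j subfamilies. Orange and blue bars passed an adjusted p of 0.05 in edgeR's test, grey bars did not and crosses were not tested. *Cyp2c66* and *Cyp2c67* were higher, *Cyp2c55* and *Cyp2c68* had values below 0, and *Cyp2c65*, between *Cyp2c55* and *Cyp2c66*, had a value of 0.61. *Cyp2d10*, *Cyp2d34* and *Cyp2d13* were lower, and *Cyp2d26* had a value above 0.

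The promoters of the Cyp2c cluster were compared because *Cyp2c66* and *Cyp2c67* were higher. Promoter sequences (250 bases before to 50 after a start, RefSeq, GRCm38.p6) were given for 42 members and searched on both strands for 5 motifs. These were the xenobiotic response element core GCGTG, the HNF4 letters CAAAGTNCA, the HNF1 letters GTTAATNAT, the nuclear receptor half-site AGGTCA and the CDX letters TTTATNG. The motifs did not overlap each other at any of the 46 matches. A member counted as holding a motif if any of its promoters did, whereas the share of all promoters was taken per promoter, so the shares are not in like units. The HNF4 letters were in 9 of 42 members (21.4%) and in 1.41% of all 32851 promoters. The 9 members were *Cyp2c40*, *Cyp2c65*, *Cyp2c67*, *Cyp2c68*, *Cyp2c69*, *Cyp2c70*, *Cyp2d26*, *Cyp3a11* and *Cyp3a44*, and several of these promoters are near copies of each other. Only 1 of the 7 members with a promoter that were higher (*Cyp2c67*) and none of the 3 that were lower held them. The other motifs were in 28.6%, 2.38%, 16.7% and 11.9% of members, against 32.4%, 0.801%, 16.3% and 10.9% of all promoters, in the order xenobiotic response element core, HNF1, half-site and CDX. A set of 4 promoters of the cluster follows, 5′ to 3′ on the strand of the gene, with motif matches in capitals.

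Cyp2c55 (chr19:39006769-39007068, plus strand): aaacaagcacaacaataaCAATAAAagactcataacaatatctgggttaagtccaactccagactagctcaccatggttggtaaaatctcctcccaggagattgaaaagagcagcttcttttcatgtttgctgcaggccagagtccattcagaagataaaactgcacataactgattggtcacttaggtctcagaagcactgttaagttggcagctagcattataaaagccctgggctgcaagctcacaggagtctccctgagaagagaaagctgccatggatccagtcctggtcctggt
Cyp2c65 (chr19:39060756-39061055, plus strand): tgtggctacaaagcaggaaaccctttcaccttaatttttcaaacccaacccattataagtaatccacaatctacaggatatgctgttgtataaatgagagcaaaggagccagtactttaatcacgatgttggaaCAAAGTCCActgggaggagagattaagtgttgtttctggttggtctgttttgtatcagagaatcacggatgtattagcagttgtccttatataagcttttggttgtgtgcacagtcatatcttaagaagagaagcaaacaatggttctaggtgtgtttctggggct
Cyp2c66 (chr19:39113648-39113947, plus strand): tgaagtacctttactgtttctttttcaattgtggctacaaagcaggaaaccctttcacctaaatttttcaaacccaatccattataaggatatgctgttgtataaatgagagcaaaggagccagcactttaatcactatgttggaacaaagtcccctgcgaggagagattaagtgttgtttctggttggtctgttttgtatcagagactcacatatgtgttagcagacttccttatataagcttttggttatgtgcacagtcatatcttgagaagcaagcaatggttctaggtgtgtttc
Cyp2c67 (chr19:39648993-39649292, minus strand): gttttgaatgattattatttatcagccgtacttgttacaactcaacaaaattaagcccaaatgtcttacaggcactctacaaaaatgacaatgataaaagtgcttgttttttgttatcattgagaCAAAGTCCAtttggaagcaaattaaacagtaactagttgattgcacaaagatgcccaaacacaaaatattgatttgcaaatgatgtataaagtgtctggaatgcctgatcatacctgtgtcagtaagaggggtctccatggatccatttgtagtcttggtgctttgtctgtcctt

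In the 49 bases around the HNF4 letters, the *Cyp2c65* and *Cyp2c66* promoters had 46 in common, and *Cyp2c66* differs within the motif by A9C, counted from the first base of the motif with the *Cyp2c65* base first.

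In the Cyp2d subfamily, the relatives of the human drug-metabolizing enzyme CYP2D6, 3 of 7 tested members were lower and none was higher in edgeR's test at an adjusted p under 0.05. At an unadjusted p under 0.05, in DESeq2 and in limma-voom, 5, 4 and 5 were lower and 1 was higher in each case, *Cyp2d26*. *Cyp2d10* (chr15:82402845-82407253) was at 45.5, 66.5, 47.4 and 54.8 CPM in the S libraries and 12.5, 18.1, 19.7, 15.3 and 28.2 CPM in the DDKO libraries. The highest DDKO library stayed well below the lowest S library (log2 fold change -1.51 ± 0.21, adjusted p = 0.00175, edgeR's quasi-likelihood test). Its near copy *Cyp2d11* added little, and the sum of both was 53.8 ± 9.48 and 19.4 ± 5.62 CPM.

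*Cyp2d34* (chr15:82615963-82620956), the most abundant Cyp2d member, was at 247, 180, 231 and 252 CPM in the S libraries. It was at 77.5, 134, 102, 108 and 133 CPM in the DDKO libraries, again without overlap (log2 fold change -1.04 ± 0.16, adjusted p = 0.00293, edgeR's quasi-likelihood test). *Cyp2d13*, the pseudogene next to it (chr15:82636750-82642045), was at 24.8, 18.2, 23.0 and 26.0 CPM against 9.93, 13.4, 11.4, 12.7 and 16.8 CPM. The log2 fold change was -0.84 ± 0.16 (adjusted p = 0.00827, edgeR's quasi-likelihood test). For both, S replicate 2 was the lowest S library and DDKO replicate 1 the lowest DDKO library.

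*Cyp2d26*, the next member after *Cyp2d13* along the chromosome, had the only log2 fold change above 0 among the tested Cyp2d members, at 9.26 ± 1.89 CPM in the S and 16.7 ± 7.25 CPM in the DDKO libraries (log2 fold change 0.85 ± 0.30, adjusted p = 0.0874, edgeR's quasi-likelihood test). *Cyp2d22*, the closest relative of CYP2D6, had a log2 fold change of -0.88 ± 0.27 (adjusted p = 0.0544, edgeR's quasi-likelihood test), and it passed in DESeq2 (0.0149) and limma-voom (0.0222), in a range of 0.0149 to 0.209 over DESeq2, limma-voom, no filter on low counts, the replicate block and both fits on Y-linked counts. *Cyp2d9* and *Cyp2d12* had values of -0.70 and -0.56 and overlapped between the genotypes. *Cyp2d11* was not tested, at 0.123 to 0.476 and 0.140 to 1.60 CPM.

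The Cyp2j subfamily makes epoxides and hydroxides of arachidonic and linoleic acid, and both of its tested members were higher. *Cyp2j6* (chr4:96516138-96564305), which is expressed along the intestine, was at 83.1, 106, 107 and 99.6 CPM in the S libraries and 154, 163, 229, 233 and 157 CPM in the DDKO libraries. No library overlapped (log2 fold change 0.92 ± 0.15, adjusted p = 0.00398, edgeR's quasi-likelihood test). Its neighbour *Cyp2j9* (chr4:96568424-96592523) was at 1.48, 3.51, 2.95 and 1.35 CPM against 6.02, 6.05, 6.99, 6.06 and 5.35 CPM. The DDKO libraries were close to each other and all above the S libraries (log2 fold change 1.38 ± 0.29, adjusted p = 0.0125, edgeR's quasi-likelihood test).

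Another 2 Cyp2j members were at the limit of detection. *Cyp2j8* had 3 counts in the S and 58 in the DDKO libraries (ratio 17, exact counting interval 5.55 to 85.0), and was not tested. By library it was at 0.0642, 0.0594, 0 and 0.0794 CPM against 1.60, 1.07, 0.280, 0.708 and 0.388 CPM, without overlap. *Cyp2j13*, at the far end of the cluster, was at 0.123 to 0.556 CPM in the S and 0.0699 to 0.233 CPM in the DDKO libraries and was not tested.

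The Cyp3a enzymes oxidize steroids and a large share of drugs, and are induced through the pregnane X receptor. *Cyp3a25* (chr5:145977192-146009644) had the largest log2 fold change of the tested members. It was at 0, 1.55, 0.368 and 0.159 CPM in the S libraries and 8.46, 19.0, 36.4, 59.6 and 5.04 CPM in the DDKO libraries. All DDKO libraries were above all S libraries, with replicates 3 and 4 the highest and replicates 1 and 5 the lowest among them. The log2 fold change was 5.54 ± 0.96 (adjusted p = 0.00522, edgeR's quasi-likelihood test), and 7.09 without S replicate 2, the only S library above 1 CPM. *Cyp3a59*, with which it shares 25.2% of its 50-base stretches, had 1 and 18 counts (ratio 15.9, exact counting interval 2.50 to 661) and the sum of both was 0.533 ± 0.697 and 26.0 ± 22.7 CPM. By library, *Cyp3a59* was at 0, 0, 0.0614 and 0 CPM against 0.128, 0.427, 0.0699, 0.629 and 0.0775 CPM. The promoter of *Cyp3a25*, shown because its gene changed most, held the half-site on both strands, as did that of *Cyp3a59*.

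Cyp3a25 (chr5:146009568-146009867, minus strand): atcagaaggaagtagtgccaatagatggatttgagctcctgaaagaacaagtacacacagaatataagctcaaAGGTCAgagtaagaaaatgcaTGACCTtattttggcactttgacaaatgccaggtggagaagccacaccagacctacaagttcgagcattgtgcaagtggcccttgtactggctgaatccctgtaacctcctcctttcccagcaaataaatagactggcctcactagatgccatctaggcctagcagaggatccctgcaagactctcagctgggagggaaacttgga

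*Cyp3a13* (chr5:137892933-137925610) lies apart from the Cyp3a cluster and is the main Cyp3a gene of the mouse intestine. It was at 123, 100, 98.3 and 126 CPM in the S libraries and 171, 371, 172, 223 and 139 CPM in the DDKO libraries. The lowest DDKO library was close to the highest S libraries (log2 fold change 0.94 ± 0.25, adjusted p = 0.0330, edgeR's quasi-likelihood test). *Cyp3a11* and *Cyp3a44* reached at most 0.629 CPM in any library and were not tested.

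Of the Cyp4f subfamily, whose enzymes hydroxylate the end of fatty acid and leukotriene chains, 1 of 6 tested members was higher. *Cyp4f16* (chr17:32536545-32551798) was at 61.2, 54.4, 75.5 and 69.0 CPM in the S libraries. The DDKO libraries were at 127, 173, 93.9, 118 and 66.2 CPM, and replicate 5 fell inside the S range (log2 fold change 0.83 ± 0.23, adjusted p = 0.0375, edgeR's quasi-likelihood test). It shares 16.3% of its 50-base stretches with *Cyp4f37*, which is not a member.

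Per kilobase of exon, *Cyp4f14* was the most abundant Cyp4f gene in both genotypes, at 51.0 (S) and 62.2 (DDKO) CPM. Unscaled by length it was at 123, 107, 143 and 121 CPM in the S and 123, 153, 156, 191 and 129 CPM in the DDKO libraries. The ranges overlapped (log2 fold change 0.28 ± 0.13, adjusted p = 0.177, edgeR's quasi-likelihood test). *Cyp4f40* was at 69.9 to 103 and 34.7 to 120 CPM, and *Cyp4f13*, *Cyp4f17* and *Cyp4f18* had log2 fold changes of -0.26, -0.59 and 0.40. *Cyp4f39*, an enzyme of skin lipid synthesis, was not tested at 0.155 to 0.614 CPM.

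Of the other members of families 2 and 4, *Cyp2f2* (chr7:27119955-27133660) had the largest decrease. It is best known from club cells of the lung, where it activates naphthalene. It was at 17.5, 8.44, 16.6 and 13.7 CPM in the S libraries and 1.35, 3.34, 0.979, 1.02 and 4.34 CPM in the DDKO libraries, without overlap. The log2 fold change was -2.67 ± 0.43 (adjusted p = 0.00369, edgeR's quasi-likelihood test).

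*Cyp2s1*, an epithelial enzyme outside the liver, stood at 91.0 ± 15.9 and 91.3 ± 18 CPM (a log2 difference of 0.00 ± 0.15, adjusted p = 0.989, edgeR's quasi-likelihood test), a difference far smaller than the spread between libraries. *Cyp2w1*, known from fetal gut and colorectal tumours, was at 5.39 ± 1.0 and 7.48 ± 5.74 CPM. *Cyp2r1* and *Cyp2u1* did not exceed 3.07 CPM in any library, and *Cyp4b1* and *Cyp4v3* had log2 fold changes of 1.15 ± 0.48 and 0.47 ± 0.25, none of which passed. *Cyp2a12*, *Cyp2b10*, *Cyp2e1* and *Cyp4x1* did not reach 0.45 CPM in any library and were not tested.

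Among enzymes of sterol, bile acid and vitamin metabolism, *Cyp27a1* (chr1:74713148-74737897), the mitochondrial sterol hydroxylase that starts the acidic route of bile acid synthesis, was lower. It was at 18.7, 15.1, 24.1 and 19.5 CPM in the S libraries and 6.54, 11.9, 8.60, 12.5 and 14.3 CPM in the DDKO libraries. The genotypes did not overlap, but the highest DDKO library was close to the lowest S library (log2 fold change -0.85 ± 0.22, adjusted p = 0.0297, edgeR's quasi-likelihood test). *Cyp7b1*, which acts on the products of *Cyp27a1*, was low in both genotypes and had a log2 fold change of 1.54 ± 0.55 (adjusted p = 0.0889, edgeR's quasi-likelihood test). *Cyp39a1* (25.9 and 21.6 CPM) and *Cyp20a1* (19.3 and 17.3 CPM) did not pass, with log2 fold changes of -0.26 and -0.16.

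*Cyp11a1*, which starts steroid synthesis from cholesterol, was at 0.577, 0.773, 0.798 and 0.794 CPM in the S libraries and 1.41, 1.28, 0.909, 0.865 and 0.931 CPM in the DDKO libraries. All DDKO libraries were higher in CPM though not in raw counts, and the log2 fold change of 0.55 ± 0.29 did not pass (adjusted p = 0.217, edgeR's quasi-likelihood test). *Cyp26b1*, *Cyp27b1* and *Cyp46a1*, of retinoic acid, vitamin D and brain cholesterol metabolism, were at most 0.713 CPM in any library and were not tested.

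**Figure D4:**
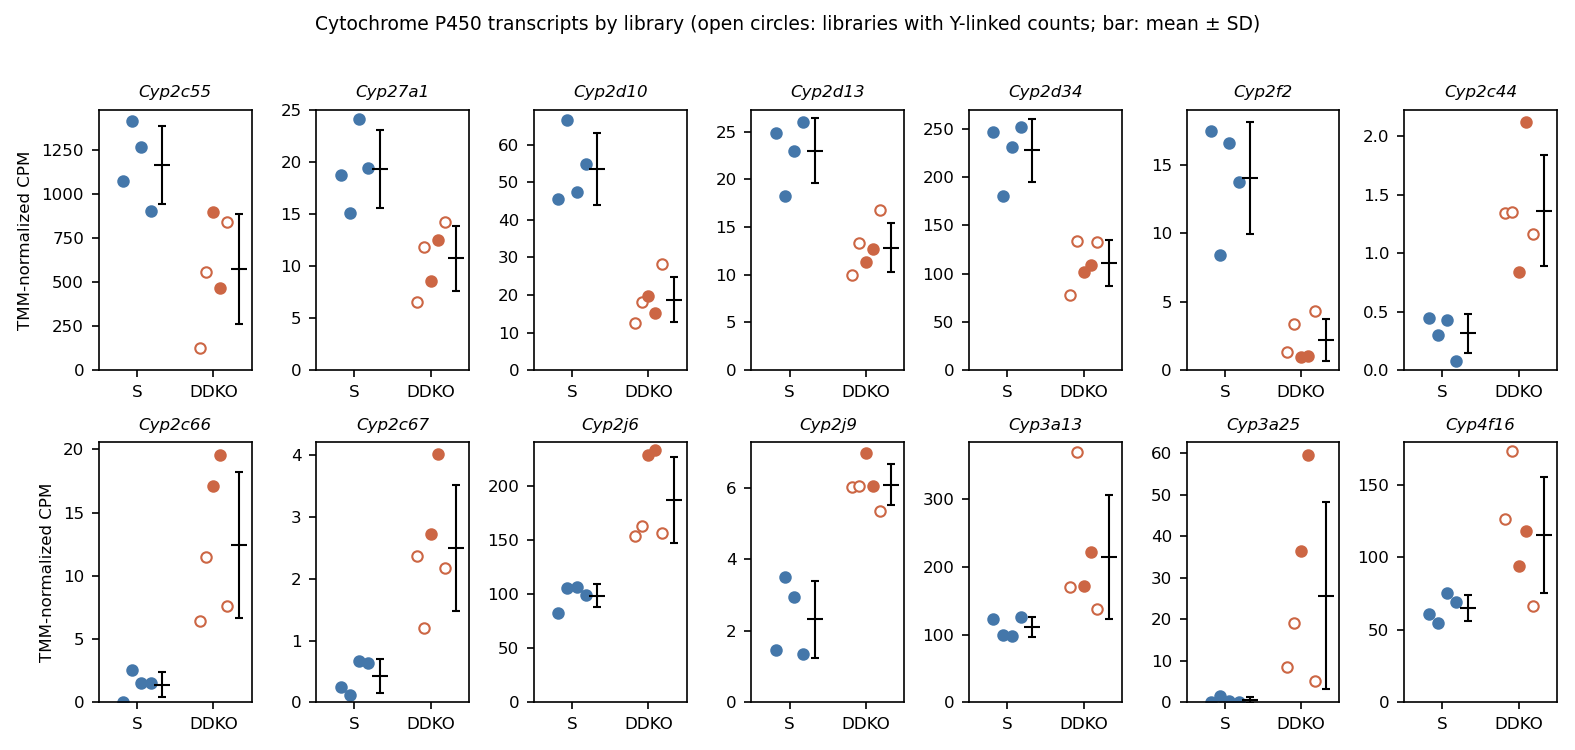
CPM of *Cyp2c55* and the 13 members with an adjusted p under 0.05 (edgeR's quasi-likelihood test) in each S (n = 4, blue) and DDKO (n = 5, orange) library, with the mean and SD beside the points. Open circles are the 3 DDKO libraries with Y-linked counts. The genotypes overlap only for *Cyp4f16*, where DDKO replicate 5 stands at 66.2 CPM.

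Counted over all members, the libraries did not overlap for 11 that were higher (8 tested, 3 not) and 6 that were lower in the DDKO libraries. Among tested genes 8.34% were without overlap and higher and 8.87% lower, and among all symbols with at least 10 counts the shares were 7.21% and 7.1%. The 3 untested members, *Cyp2c70*, *Cyp2j8* and *Cyp3a59*, reached 10 counts only through the DDKO libraries, where they were high, so their lack of overlap follows in part from how members were chosen. For 2 of the 11 it also rests on the scaling to CPM. *Cyp3a59* had 1 count each in S replicate 3 and DDKO replicates 3 and 5. *Cyp11a1* had 13 counts each in S replicates 2 and 3 and 13, 11 and 12 in DDKO replicates 3, 4 and 5.

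All 3 libraries with Y-linked counts were DDKO, and every S library read as female, so sex and genotype are partly confounded. Within that genotype, both libraries without such counts (replicates 3 and 4, with 28 and 0 of them) were above the other 3 for 9 of the 36 tested members and below them for 5, 38.9% in all against 28.3% of all genes tested. *Cyp3a25* was at 48.0 CPM on average in those without and 10.8 in those with Y-linked counts. *Cyp2c66* (18.4 and 8.49), *Cyp2d26* (24.1 and 11.8) and *Cyp2w1* (12.9 and 3.85) were higher in the libraries without, and *Cyp2d9* (9.0 and 20.8) and *Cyp2f2* (1.0 and 3.01) lower. These are not groups of the study and were not tested against each other.

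In the libraries without Y-linked counts alone (4 S and 2 DDKO) 37 members were tested. At an adjusted p under 0.05 in edgeR's test 14 were higher and 7 lower, and all 13 called before were among them. Over all genes 2930 of 15138 passed in that fit (1406 higher, 1524 lower), against 1941 of 14593 in the main fit. *Cyp2f2* then had a log2 fold change of -3.80, *Cyp3a25* of 6.43, and *Cyp2d26* (1.38), *Cyp2d9* (-1.55) and *Cyp2w1* (1.26) passed. With a term for Y-linked counts over all 9 libraries 8 were higher and 5 lower, of which 10 were the same members, and 1285 of all 14593 genes passed. The adjusted p in edgeR's test was then 0.104 for *Cyp27a1*, 0.134 for *Cyp3a13* and 0.154 for *Cyp4f16*. Over all alternatives it ranged from 0.00364 to 0.105, from 0.00176 to 0.134 and from 0.00344 to 0.154 for these 3 genes.

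**Figure D5:**
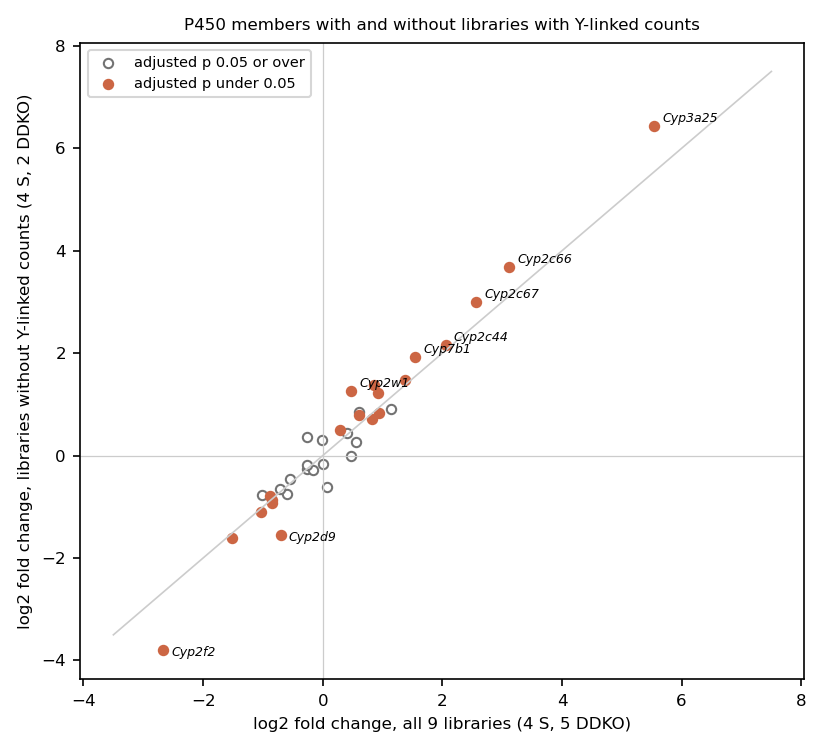
Log2 fold change of the 36 tested members in all 9 libraries (horizontal) against that in the 6 libraries without Y-linked counts (vertical), with the line of equal values. Filled points passed an adjusted p of 0.05 in the smaller set (edgeR's quasi-likelihood test). *Cyp2f2* lies at -2.67 and -3.80 and *Cyp3a25* at 5.54 and 6.43, both further from 0 in the smaller set.

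The same 3 genes lost their call when single libraries were left out. *Cyp27a1* had an adjusted p of 0.0662, 0.105, 0.0664 and 0.0597 in edgeR's test without S replicate 1, 3 or 4 or DDKO replicate 3. *Cyp3a13* had 0.0682, 0.0877, 0.104, 0.0625 and 0.0627 without S replicate 1, 2, 3 or 4 or DDKO replicate 4. For *Cyp4f16* it was 0.0548 to 0.101 without any 1 of the 4 S libraries or of DDKO replicates 1, 2 and 4. The other 10 called members passed with each library left out in turn.

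Partner genes of the P450 enzymes were read from the same fit. Of 8 genes that supply electrons or haem all were tested, and 2 were higher and 1 lower. *Pgrmc1*, a haem-binding protein that associates with P450 enzymes, was at 99.0 ± 7.41 and 139 ± 14.2 CPM (a log2 difference of 0.49, adjusted p = 0.00795, edgeR's quasi-likelihood test). *Alas1*, the first enzyme of haem synthesis, was at 155 ± 9.17 and 199 ± 21.9 CPM (a log2 difference of 0.36, adjusted p = 0.0269, edgeR's quasi-likelihood test). *Fdxr*, the reductase that feeds mitochondrial P450 enzymes such as the *Cyp27a1* product, was at 15.6 ± 2.94 and 9.14 ± 1.79 CPM (a log2 difference of -0.77, adjusted p = 0.0193, edgeR's quasi-likelihood test). *Por*, the reductase that serves the microsomal P450 enzymes, was at 116 ± 10.2 and 155 ± 47.1 CPM and did not pass (adjusted p = 0.161, edgeR's quasi-likelihood test).

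None of the 12 tested receptors and co-factors that control P450 genes passed in edgeR's test, in which 2 had an unadjusted p under 0.05, and 1 passed in DESeq2 and in limma-voom. *Ahr*, the aryl hydrocarbon receptor, had a log2 fold change of -0.15 ± 0.14, *Nr1i2*, the pregnane X receptor, of -0.13 ± 0.10, and *Hnf4a* of 0.05 ± 0.09. The 2 with an unadjusted p under 0.05, named after their values were seen, were *Rxra*, the partner of many nuclear receptors, at 0.24 ± 0.08 (adjusted p = 0.0587, edgeR's quasi-likelihood test) with every DDKO library above every S library, and *Ppara*, a fatty acid receptor, at 0.49 ± 0.20 (adjusted p = 0.123) with overlap. *Hnf4a*, a master regulator of gut and liver genes, was abundant at 895 ± 55.2 and 924 ± 86.9 CPM. Of 5 other targets of the aryl hydrocarbon receptor, 4 were tested, 2 were higher and none was lower in edgeR's test. *Nqo1*, a quinone reductase also controlled by Nrf2, was at 62.8 ± 13.7 and 148 ± 23.4 CPM (a log2 difference of 1.23 ± 0.16, adjusted p = 0.00121, edgeR's quasi-likelihood test). *Tiparp* was at 26.0 ± 3.95 and 35.0 ± 2.08 CPM (a log2 difference of 0.43, adjusted p = 0.0265, edgeR's quasi-likelihood test). *Scin* and *Lpcat2* had log2 differences of -0.60 and -0.05 and did not pass, and *Aldh3a1*, with 2 counts in all, was not tested. Of P450 enzymes outside the naming rule, *Cyp51*, the lanosterol demethylase of cholesterol synthesis, was tested and stood at 201 ± 24.7 and 255 ± 41.5 CPM (adjusted p = 0.102, edgeR's quasi-likelihood test). Over the 4 lists, 25 of 30 genes were tested, 4 were higher and 1 lower in edgeR's test, where 13.3% of all tested genes passed. Without S replicate 4 the 5 calls became 2, and without S replicate 1 or 3 they became 3.

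Several members higher in the DDKO libraries are also expressed in the small intestine or liver, so markers of these cells were read beside them. Of 15 small intestine enterocyte markers 13 were tested and 8 were higher in edgeR's test, where 6.76% of all tested genes were higher. The sum of the 15 was 1440 to 1717 CPM in the S and 2039 to 3193 CPM in the DDKO libraries. *Sis*, the brush border sucrase-isomaltase, was at 2.78 CPM on average in the S and 155 CPM in the DDKO libraries, and at 278 CPM in replicate 4, where *Cyp3a25* was also highest. Of the other markers that were higher, *Mttp*, *Mgam*, *Fabp1* and *Dpp4* also peaked in DDKO replicate 4, *Anpep* and *Treh* in replicate 1 and *Rbp2* in replicate 2. *Fabp2* and *Slc15a1*, with log2 fold changes of 0.09 and -0.24, did not pass. The part of these markers in the P450 result was not tested. Of 6 hepatocyte markers 3 were tested and none passed in edgeR's test or DESeq2 (1 at an unadjusted p under 0.05 and in limma-voom). The sum was 19.4 to 34.2 CPM in the S and 12.8 to 31.2 CPM in the DDKO libraries, most of it *Ttr* (27.1 ± 6.58 and 20.5 ± 7.78 CPM). *Apoh*, the marker with an unadjusted p under 0.05 in edgeR's test, was higher in the DDKO libraries, at 0.475 ± 0.322 and 1.10 ± 0.40 CPM. *Fgb* (6 counts) and *Ahsg* (10 counts) were seen only in DDKO libraries. *Serpina1a* was at 0 in every library and *Alb* at no more than 2.25 CPM. Of 10 leukocyte and 10 stromal markers 10 and 5 were tested and none passed in edgeR's test (0 and 2 at an unadjusted p under 0.05, 0 and 1 in DESeq2, none in limma-voom), with sums of 487 to 536 against 160 to 1082 CPM and of 13.2 to 30.1 against 20.7 to 61.2 CPM.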

How the data were processed

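The authors deposited whole-number read counts per gene symbol for 9 libraries, with no normalization or pooling stated. The submitters' processing notes name HISAT2 2.0 and mm10 (GRCm38). The counting program, annotation and strand setting are not given in the sources used here. Every column belonged to 1 library, with its genotype from the labels. The 27 symbols turned into dates stayed in the totals.

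The filter on low counts was edgeR's filterByExpr (edgeR 4.0.16 in R 4.3.3), which left 14593 genes. Counts were scaled by TMM and the genotypes compared by the quasi-likelihood test (glmQLFTest) without covariates. P-values were adjusted by Benjamini-Hochberg across these genes. Each SE was the size of the log2 fold change divided by the square root of F. Simulated counts with 200 of 14402 genes changed gave 59 of 98 2-fold and 89 of 102 4-fold changes and 9 false calls. Alternatives were DESeq2 1.42.0, limma-voom (limma 3.58.1), other scalings and filters on low counts, a replicate block, fits without single libraries, and a term for, or removal of, libraries with Y-linked counts. Libraries of 1 genotype differed beyond sampling noise (chi-square of at least 9.92 per gene), so each counted as 1. Among S libraries the chi-square per gene was 11.5 to 42.2. It was 46.2 to 70 between DDKO replicates 1 or 2 and replicates 3 to 5, 20.7 between replicates 1 and 2, and 9.92 to 28.7 among replicates 3 to 5.

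Members given with every library's value were those with an adjusted p under 0.05, those without overlap and the 6 most abundant. Partner genes were named where the adjusted p was under 0.05, with *Por*, *Ahr*, *Nr1i2* and *Hnf4a*. The other partner genes named were chosen after their values were seen. Members and lists were chosen with earlier results of these data known.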

Additional observations from a re-analysis of the deposited data

Results flagged for a closer look

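In 3 of the 40 groups of libraries checked, 1 library stood far from the rest of its genotype by Dixon's criterion. *Cyp11a1* was at 0.577 CPM in S replicate 1, below the other S libraries at 0.773 to 0.798. *Cyp2c70* was at 0.0794 CPM in S replicate 4 and *Cyp3a59* at 0.0614 CPM in S replicate 3, each a single count beside 3 libraries at 0. With 3 libraries tied at 0 any single count meets the criterion, so the marks of *Cyp2c70* and *Cyp3a59* carry no information. In groups without such ties, chance alone marks about 1 in 20.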

How the results depend on the processing

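No member named with its library values changed direction under any alternative that gave it a value. Of the 13 called members, 9 passed under every alternative that tested them, and *Cyp27a1*, *Cyp3a13*, *Cyp4f16* and *Cyp2c44* did not. Against 8 higher and 5 lower members, limma-voom with quality weights gave 10 and 8, DESeq2 10 and 6, no filter on low counts 10 and 6, and a minimum of 10 counts in every library 4 and 5, where only 9 of the 13 could be tested. Over all genes, limma-voom called 2927 and DESeq2 2792 of 14593, against 1941 in the main fit. No filter on low counts called 1874 of 26890, the minimum of 10 counts 1641 of 12751 and the replicate block 1618 of 14593. The libraries without Y-linked counts alone gave 14 higher and 7 lower members, where 2930 of 15138 genes were called (1406 higher, 1524 lower). Leaving out each library in turn gave 6 to 9 higher and 4 to 8 lower, the 8 without DDKO replicate 2, while 847 to 2696 of all genes were called. The 5 partner genes called became 8 with limma-voom and 2 at an unadjusted p under 0.05 with a fold change over 1.5. They numbered 2 to 6 with each library left out, with 3, 3 and 2 without S replicates 1, 3 and 4. Same-numbered libraries of the genotypes did not deviate together (correlations -0.10 to 0.09), so the numbers do not pair them. With the replicate block 9 members were higher and 5 lower and 4 partner genes were called, and *Cyp2c44* had an adjusted p of 0.0522 in edgeR's test, in a range of 0.0015 to 0.0522 over its alternatives. Members under about 1 CPM rest on few counts.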
